A study of Mus musculus with 2 samples.

Results

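Txnip, the gene of thioredoxin-interacting protein, was examined together with its relatives among the α-arrestins (Arrdc1, Arrdc2, Arrdc3 and Arrdc4) and with the glucose-responsive transcription factors Mlx, Mlxip (MondoA) and Mlxipl (ChREBP). These 8 of the 18193 genes named on the array were chosen with their signals at both days known, because the Txnip signal is lower at day 12 while genes of glucose use are higher, so their values describe these cultures and test nothing. The cells were murine calvarial cells (cells of the skull roof) of newborn mice, negative for the myeloid surface protein CD11b, and they received no treatment besides ascorbic acid and β-glycerophosphate, which let osteoblasts lay down and mineralise matrix. Total RNA of 1 sample at day 5 and of 1 sample at day 12 of differentiation was hybridised to 1 Affymetrix array each, and the labels do not say how many mice or cultures a sample holds. No replicate error or p-value can therefore be given, and every difference below compares these 2 arrays.

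The α-arrestins are adaptor proteins that link membrane cargo to ubiquitin ligases of the NEDD4 family, which sends the cargo into endosomes. Txnip and Arrdc4 act in this way on glucose transporters and so restrain glucose uptake, and Txnip also binds thioredoxin. When glucose enters the cell and is phosphorylated, Mlxip or Mlxipl pairs with Mlx and binds a carbohydrate response element, a pair of E-boxes with a fixed spacing, in the promoters of Txnip, Arrdc4 and other genes. Txnip transcript is for this reason widely read as a gauge of glucose supply, but it also answers to glucocorticoids, FoxO factors and oxygen.

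The promoters of Txnip and Arrdc4 are shown because these were the members at least 2-fold lower at day 12. The sequences are the 250 bases before the start site, 5′ to 3′ on the strand of the gene, from RefSeq on GRCm38.p6. The Txnip window lies on the plus strand at chr3:96557707-96557956 and that of Arrdc4 on the minus strand at chr7:68749239-68749488. Capitals mark CCAAT boxes (CCAAT on either strand), E-boxes (CACGTG) and, in Txnip, the carbohydrate response element.
Txnip promoter: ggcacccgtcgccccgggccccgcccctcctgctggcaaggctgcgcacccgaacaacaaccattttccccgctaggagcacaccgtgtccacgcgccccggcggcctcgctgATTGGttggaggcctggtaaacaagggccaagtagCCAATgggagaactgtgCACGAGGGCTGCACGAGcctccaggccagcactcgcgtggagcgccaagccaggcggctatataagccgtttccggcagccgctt
Arrdc4 promoter: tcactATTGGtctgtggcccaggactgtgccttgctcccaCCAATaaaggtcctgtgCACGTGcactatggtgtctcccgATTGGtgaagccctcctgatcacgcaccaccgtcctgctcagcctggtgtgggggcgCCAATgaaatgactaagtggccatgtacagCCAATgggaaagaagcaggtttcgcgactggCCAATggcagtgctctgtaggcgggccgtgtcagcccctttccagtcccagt

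Among all 8 members, Txnip alone held a match to the carbohydrate response element in this window. The motif was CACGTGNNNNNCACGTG with at most 1 base off in each of its 2 boxes, searched on both strands, over 250 bases before and 50 after the start. The Txnip match ran from base -85 to base -69, with 1 base off in each box, and 2 CCAAT boxes lay further upstream, at bases -137 to -133 and -102 to -98. A match was present in 0.414% of 32851 RefSeq promoters of this length, and a match together with 2 or more CCAAT boxes in 11 of them. Of 15 other genes described as glucose-response targets that had a promoter in RefSeq, 1 (Pklr) held a match. The lack of a match by this rule thus does not show that a gene lacks the element. Arrdc4 had 6 CCAAT boxes and 1 E-box, at bases -193 to -188, and no match by this rule. Mlx and the first of 2 Mlxipl start sites also had 1 E-box each, a motif held by 7.15% of promoters, and CCAAT was held by 37.4%. The closest box pairs of Txnip, Arrdc4 and Mlxipl follow, with the boxes in capitals and the spacer in lower case. They are 2, 3 and 3 bases off CACGTG over both boxes, and 8.56% of promoters hold a pair that is at most 3 off.
Txnip pair: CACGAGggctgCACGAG
Arrdc4 pair: AAGGTCctgtgCACGTG
Mlxipl pair: CGGCTGccatcCACGTG

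**Figure D1:**
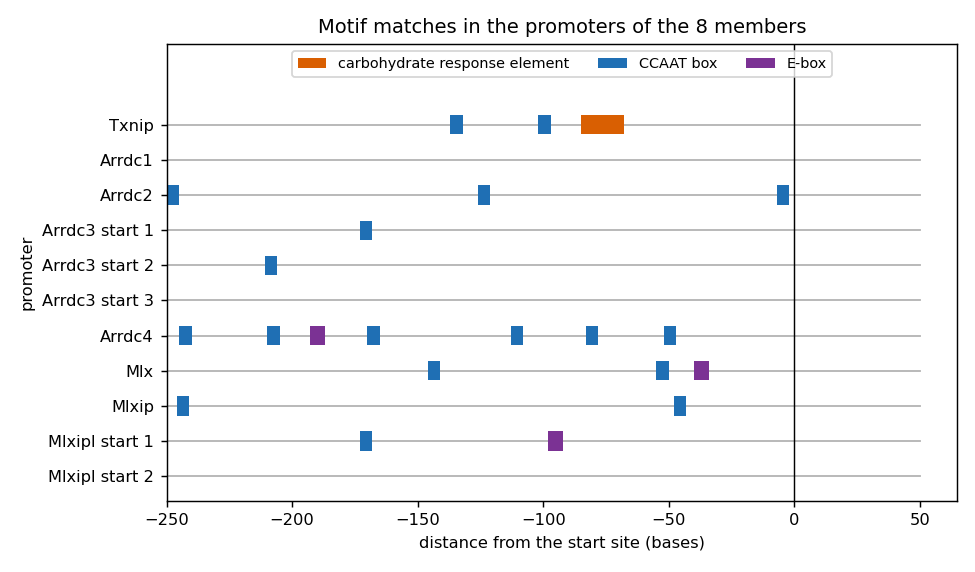
Matches to the carbohydrate response element (orange), CCAAT boxes (blue) and E-boxes (purple) in the promoters of the 8 members, with distance from the start site in bases on the x axis and 1 line for each start site in RefSeq. Txnip alone has an orange block, at bases -85 to -69, and Arrdc4 has the most CCAAT boxes, 6.

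The members were read by 13 probe sets. The 60th percentile of each array served as a floor of reliable signal (46.6 at day 5, 44.8 at day 12), and a gene was counted as measured where its brightest probe set reached the floor on at least 1 array. By this rule 6 of 8 members were measured, 5 of them on both arrays, and Arrdc2 and Mlxipl were not. Of all 18193 named genes, 10479 were measured. Values under the floor were raised to it before a ratio was taken, so such a ratio is a bound and is written "at least". Signals of different probe sets depend on the probes and do not rank genes by transcript level.

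Txnip was the member with the largest difference between the days. The signal of its brighter probe set read 763.2 at day 5 and 221.1 at day 12, which is 3.45-fold lower at day 12 (a log2 ratio of -1.79). Its other probe set read 194.7 at day 5 and 29.0 at day 12, under the floor, and was at least 4.35-fold lower. Both probe sets were thus lower at day 12, the dimmer one by at least as much. The ratio of the brighter probe set was the 15th lowest of 10479 measured genes, which is the difference that led to its choice. In RNA from whole cultures, fewer cells that express a gene and less of its RNA per cell cannot be told apart.

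Arrdc4, the closest relative of Txnip in its action on glucose transporters, was lower at day 12 as well, near the limit of measurement. Its brighter probe set read 97.2 at day 5 and 35.1 at day 12, under the floor, and was at least 2.17-fold lower (a log2 ratio of -1.12). Its other probe set read 54.1 at day 5 and 31.3 at day 12 and was at least 1.21-fold lower. The direction was shared by both probe sets, and 1 of them passed 2-fold. With the median of both probe sets the log2 ratio was -0.69. This value is also a bound, so it does not show whether the difference passed 2-fold.

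Arrdc3, an adaptor for β2-adrenergic receptors and other cell-surface cargo, differed the other way. Its 1 probe set read 315.0 at day 5 and 455.1 at day 12, which is 1.44-fold higher at day 12 (a log2 ratio of 0.53). Of all measured genes, 91.7% had a lower ratio. Arrdc1, which recruits the ESCRT protein Tsg101 to bud vesicles from the plasma membrane, read 138.5 at day 5 and 139.5 at day 12, a log2 ratio of 0.01. Its other probe sets stayed under the floor at both days, reading 37.8 and 29.6 for one and 2.59 and 2.40 for the other. Arrdc2 stayed under the floor at both days as well, reading 32.5 at day 5 and 33.1 at day 12. The α-arrestins thus did not move as a group, since Txnip and Arrdc4 were lower at day 12, Arrdc3 was higher by less than 2-fold and Arrdc1 was nearly level.

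The transcription factors differed little between the days where they could be measured. Mlx, the common partner, read 245.1 at day 5 and 244.2 at day 12 by its brighter probe set, a log2 ratio of -0.01 whose sign turned under median centring, quantile normalisation and loess. Its other probe set had signals of 180.3 and 201.9, a log2 ratio of 0.16. Both Mlx probe sets have names that mark probes shared by several transcripts of a gene. Mlxip, the partner in muscle and many other tissues, read 147.3 at day 5 and 167.0 at day 12, a log2 ratio of 0.18. Mlxipl, the partner best known from liver and fat, read 2.97 at day 5 and 15.2 at day 12, under the floor on both arrays, and no ratio is given for it. For scale, the log2 ratios of the 2 brightest probe sets of a gene differed by a median of 0.17 over 4446 genes, which covers probe error and not differences between cultures.

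**Figure D2:**
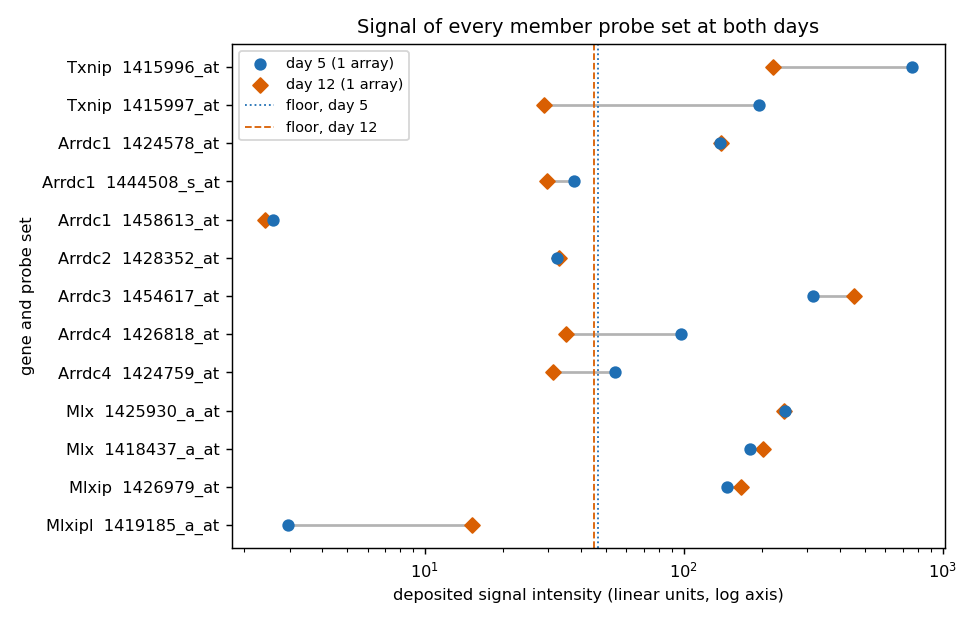
Deposited signal intensity (x axis, linear units on a log axis) of the 13 member probe sets, with a blue circle for the day 5 array, an orange diamond for the day 12 array and vertical lines for the floors of 46.6 and 44.8. Both Txnip and both Arrdc4 probe sets lie further left at day 12, while the Mlx, Mlxip and brightest Arrdc1 points lie close together.

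Counted at 2-fold, 2 of the 6 measured members, Txnip and Arrdc4, were lower at day 12, against 1.73% of all measured genes. None of the 6 was at least 2-fold higher, against 3.56% of all measured genes. The members were chosen on this contrast, so nothing is read from these shares. Over all measured genes the middle log2 ratio (median) was -0.05 and the quartiles were -0.27 and 0.17. Arrdc1 and Mlx lay between those quartiles and Mlxip, at 0.18, just above the upper one.

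**Figure D3:**
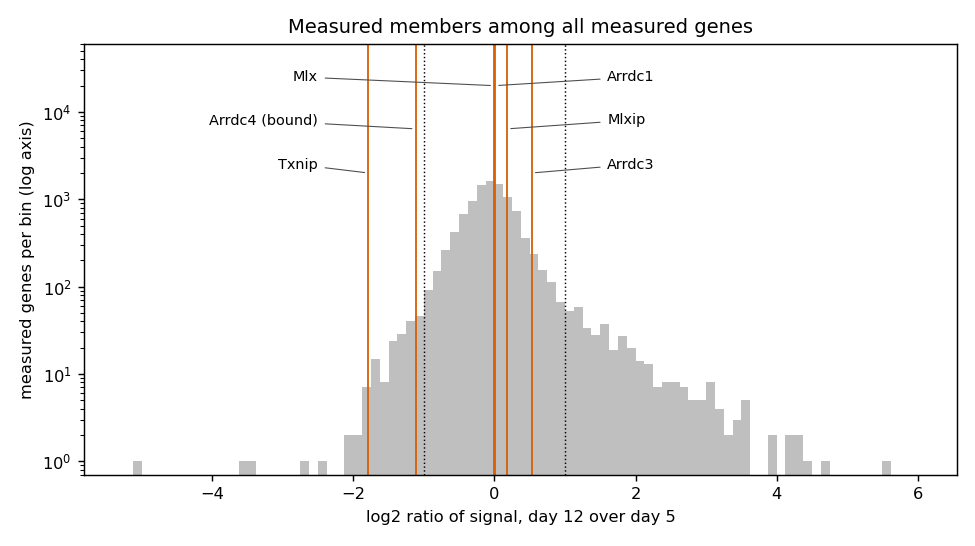
Number of measured genes (y axis, log scale) by log2 ratio of signal at day 12 over day 5 (x axis), with orange lines at the 6 measured members and dotted lines at 2-fold. Txnip at -1.79 and Arrdc4 at -1.12, a bound, lie in the lower tail, and the other 4 lie near the centre or, for Arrdc3 at 0.53, on its upper flank.

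The genes whose signals were most like those of Txnip were found by distance in log2 signal over the 2 arrays, among 9805 other genes above the floor on both. The nearest 5 were Gm2115, Csgalnact1, which starts chondroitin sulfate chains, Crct1, the sulfatase gene Arsi and the fibulin gene Fbln7. Gm2115 was nearest, reading 709.8 at day 5 and 238.5 at day 12, at a distance of 0.15. The others lay at distances of 0.29 to 0.35 and were between 2.60-fold and 3.24-fold lower at day 12. With 2 arrays this likeness means only a similar signal on each, and it depends on the probes.

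Markers of some other cells passed 2-fold between the same arrays, where 3.56% of all measured genes were higher and 1.73% lower. Of 11 chondrocyte markers, all measured, 8 passed 2-fold downward at day 12, and their summed signal was 34795 at day 5 and 13399 at day 12. Of 11 myeloid markers 10 were measured, and by brightest probe set each of these 10 was past 2-fold in the other direction, higher at day 12. The lowest probe sets of Csf1r and Laptm5 gave log2 ratios of 0.69 and 0.89, short of 2-fold. The summed signal of all 11 myeloid markers was 4961 and 12346, while Itgam, which encodes CD11b, lay under the floor at 14.6 and 35.4. Endothelial markers lay under the floor on both arrays in 5 of 5, and no marker of any list was listed at a signal of 0. Of 5 measured adipocyte markers 1 was at least 2-fold higher and none lower, and of 6 muscle markers 2 were measured and 1 was lower. None of 5 measured proliferation markers passed 2-fold, with a median log2 ratio of 0.02. Of 10 osteoblast markers, 7 had a probe set with 1 gene symbol, all 7 were measured and 5 were at least 2-fold higher. Runx2, Bglap and Spp1 had no such probe set. The part of these cells in the Txnip and Arrdc4 differences was not tested.

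The cargo and pathway that Txnip restrains differed most in the opposite direction, as the choice of the genes already implies. Of 25 listed genes of glucose transport and glycolysis, 22 had a probe set with 1 gene symbol and 21 were measured. Of these 21, 14 passed 2-fold upward at day 12 and none downward, against 3.56% and 1.73% of all measured genes. The median log2 ratio of the 21 was 1.48. Slc2a1, which encodes the glucose transporter GLUT1, the best-known cargo of Txnip, read 397.0 at day 5 and 3395 at day 12 (8.55-fold higher), and its 3 measured probe sets gave log2 ratios of 3.10 to 3.22. Slc2a3 went from 88.8 to 658.2 (a log2 ratio of 2.89, or 1.67 by its second probe set), the aldolase gene Aldoc from 65.1 to 723.3 (3.47), and Pfkfb3, whose product activates phosphofructokinase, from 143.3 to 929.6 (2.70). Hk1, Hk2, Pfkl, Pfkp, Aldoa, Tpi1, Pgk1, Pgam1 and Pkm were between 2.40-fold and 6.43-fold higher, where the lowest probe sets of Pfkp and Aldoa gave 0.41 and 0.76 on the log2 scale, and the lactate exporter gene Slc16a3 was at least 3.23-fold higher. Slc2a4, the insulin-responsive transporter gene and a further cargo of Txnip, had signals of 63.3 and 40.7, a log2 ratio of -0.50 that is a bound. The transporter genes Slc2a8, Slc2a10 and Slc2a12 had log2 ratios of 0.10, 0.19 and 0.04. The number past 2-fold was 7 without probe sets of shared sequence, where fewer genes of the list have a probe set.

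Side branches of glucose metabolism, which supply signals to Mlxip and Mlxipl, differed less. None of 13 measured genes of the pentose phosphate and hexosamine pathways passed 2-fold in either direction, and their median log2 ratio was -0.06. Over all measured genes only 3.56% were at least 2-fold higher and 1.73% lower, so nothing is read from this count. The furthest from 0 were Gfpt2, an entry enzyme of the hexosamine pathway, at -0.54, the pentose phosphate isomerase gene Rpia at 0.47, the O-GlcNAc transferase gene Ogt at 0.44 (-0.42 by its lowest probe set) and Taldo1 at -0.30.

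Other genes described as targets of carbohydrate-responsive factors lay on both sides of 0. Of 19 with a probe set, 8 lay under the floor on both arrays, among them Pklr, the liver pyruvate kinase gene in which the element was first studied. On the whole array 10479 of 18193 named genes were measured, so nothing is read from the number under the floor. Of the 11 measured targets, 2 were at least 2-fold higher and none was 2-fold lower, against 3.56% and 1.73% of all measured genes. The median log2 ratio of the 11 was -0.03, with 5 of the 11 above 0. With the 50th percentile floor 1 gene of the list was at least 2-fold lower. Bhlhe40, a transcriptional repressor that low oxygen also induces, read 312.0 at day 5 and 1835 at day 12 (5.88-fold higher), and Rgs16 had signals of 59.6 and 210.6 (3.54-fold higher, but 0.47 on the log2 scale by its lowest probe set). The malic enzyme gene Me1 had a log2 ratio of 0.60 and the fatty acid elongase gene Elovl6 of -0.81. Of 8551 measured genes with a promoter in RefSeq, 48 had a match to the element of the kind seen in Txnip. Of these 48, Txnip, which was chosen for its lower signal, was at least 2-fold lower, and Fnip1, Tnfaip3, Clcn3 and Spry1 were between 2.66-fold and 3.38-fold higher. Those 4 are 8.33% of the genes with a match, and 3.42% of the genes without one were at least 2-fold higher, a difference that was not tested. The 4 genes were named after their values were seen, and a match in the letters is not evidence of binding.

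Mlx belongs to the wider MAX network of E-box factors, which includes Myc and its antagonists. Of 9 measured genes of that network, 1 was at least 2-fold higher and none was 2-fold lower, with a median log2 ratio of 0.29. Over all measured genes 3.56% were at least 2-fold higher and 1.73% lower, so nothing is read from this count. Mxi1, a MAX partner that opposes Myc, read 189.5 at day 5 and 635.8 at day 12 (3.35-fold higher), and its lowest probe set gave a log2 ratio of 1.40. Myc was at 0.92, Mycn at 0.74 and Mnt, which can also pair with Mlx, at 0.51. Max, the common partner of Myc, was at 0.02 and Mxd1 at 0.00 (0.51 by its other probe set). The lowest values were those of Mxd3 at -0.50 (-0.79 by its lowest probe set) and Mxd4 at -0.17 (-0.60 by its lowest probe set).

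Genes of the proteins that α-arrestins work with mostly differed by less than 2-fold, as did most measured genes. Only 3.56% of all measured genes were at least 2-fold higher and 1.73% lower, so nothing is read from the counts in this paragraph. None of 8 measured NEDD4 family ligase genes passed 2-fold, with a median log2 ratio of -0.05. By brightest probe set, the furthest values were those of Wwp2 (-0.61, and -0.94 by its lowest probe set), Smurf1 (-0.46), Hecw2 (0.40, a bound) and Nedd4l (-0.18). Dimmer probe sets of Nedd4 and Smurf2 gave -0.51 and 0.47. Itch, the ligase that marks the Txnip protein for degradation, had signals of 722.6 and 684.7. None of 5 genes of ESCRT proteins used by Arrdc1 passed 2-fold, and the furthest were Vps4b at 0.45, Pdcd6ip at 0.38 (-0.33 by its lowest probe set), Vps4a at -0.21 and Tsg101 at 0.20. Among 5 other measured genes of arrestin-fold proteins, Arrb1, which encodes β-arrestin 1, was at least 2.70-fold higher, from a signal of 44.4 at day 5, under the floor, to 125.8 at day 12. Arrb2 was at 0.16 (-0.28 by its second probe set), the retromer genes Vps26a and Vps26c were at 0.21 and -0.20, and Arrdc5 lay under the floor on both arrays at 4.49 and 10.3.

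In the thioredoxin system, the other partner of Txnip, none of 10 measured genes passed 2-fold, against the shares of 3.56% higher and 1.73% lower over all measured genes, and the median log2 ratio was 0.00. Txn1, which encodes the cytosolic thioredoxin that Txnip binds, read 5703 at day 5 and 6378 at day 12, a log2 ratio of 0.16. By brightest probe set, the furthest from 0 were the reductase genes Txnrd1 at -0.50 and Txnrd2 at 0.46 (-0.21 by its lowest probe set). Next came the sulfiredoxin gene Srxn1 at -0.36 and Txnrd3 at 0.25, whose probe sets ranged from -0.03 to 0.67. A dimmer probe set of Prdx2 gave -0.63. Of the NLRP3 inflammasome, to which Txnip has been linked, Nlrp3, Casp1 and Il1b lay under the floor on both arrays, Pycard had a log2 ratio of 0.09 and Il18 of -0.81.

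Known regulators of Txnip were compared last. All 15 genes were measured, of which 2 passed 2-fold upward at day 12 and none downward, with a median log2 ratio of -0.05. Over all measured genes, 3.56% were at least 2-fold higher and 1.73% lower. Nothing is read from the counts in this paragraph. Ddit4 (REDD1), an mTORC1 inhibitor that forms a complex with Txnip and is induced by low oxygen, read 1058 at day 5 and 2581 at day 12 (2.44-fold higher). Foxo1, a factor reported to act on Txnip in a direction that depends on the cell, had signals of 212.7 and 455.1 (2.14-fold higher), and its 3 measured probe sets gave log2 ratios of 1.10 to 1.43. Foxo3 was at 0.54 and Prkaa2, a catalytic subunit of the energy sensor AMPK, at 0.50 (0.92 by its other probe set). The AMPK subunit gene Prkab1 was at -0.03, and its other probe set gave -0.89. The genes of NF-Y, which binds CCAAT boxes, had log2 ratios of -0.21 (Nfya), -0.12 (Nfyb) and -0.11 (Nfyc). Of 8 measured glucocorticoid-induced genes, a class to which Txnip belongs, Sgk1 was 2.37-fold lower, reading 861.8 at day 5 and 363.2 at day 12, and none was 2-fold higher. Glul was at -0.59, Tsc22d3 (GILZ) at -0.56 (0.28 in its highest probe set), Cebpd at 0.37, Fkbp5 at 0.08 and Per1 at 0.18, and the median was 0.13. The glucocorticoid receptor gene Nr3c1 had signals of 1042 and 997.1.

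**Figure D4:**
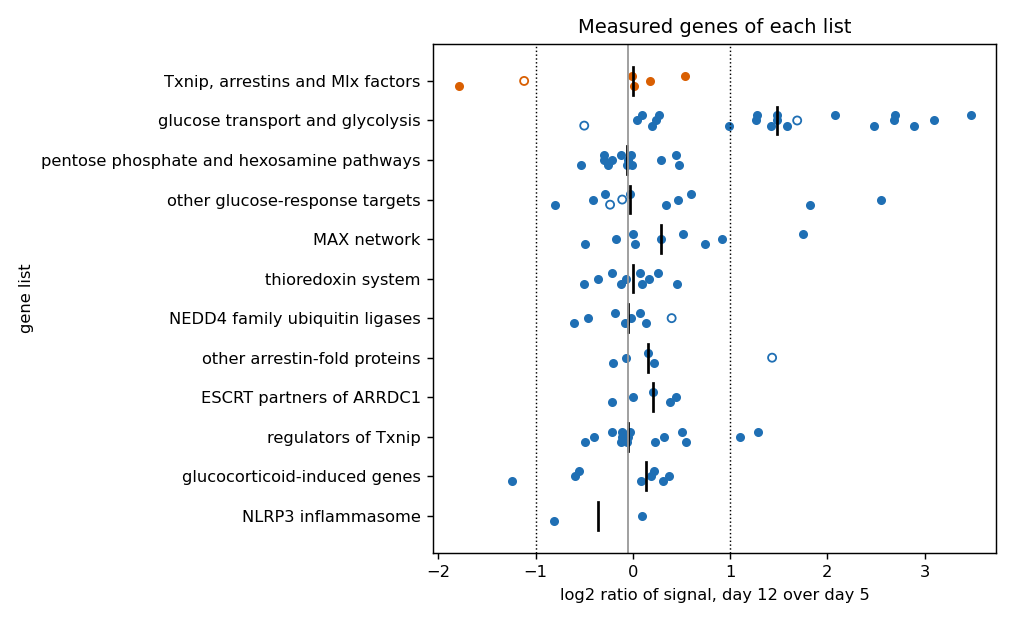
Log2 ratio of signal at day 12 over day 5 (x axis) for each measured gene of the members (orange) and of 11 gene lists (blue), with open circles for bounds, black bars for list medians, dotted lines at 2-fold and a grey line at the median of all measured genes, -0.05. Glucose transport and glycolysis has a median of 1.48, and the medians of the other 10 lists lie between -0.36 and 0.29.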

How the data were processed

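RNA from 1 sample per day was labelled as biotinylated cRNA and hybridised to Affymetrix arrays, per the labels' protocols. GCOS 1.4 and MAS5 appear in the submitters' processing notes; their settings are not given in the sources used here. The authors deposited linear signal intensity, 1 value for each of 45101 probe sets and array. The mean after trimming 2% at each end was 200.0 on both arrays, so each was scaled to 1 target, which hides any change in total RNA. No detection call was used here. The median signal was 19.7 at day 5 and 19.6 at day 12. Precision is limited by the number of arrays.

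Of 45037 probe sets other than controls, 34945 had 1 gene symbol in the platform annotation, 932 had several and 9160 had none. Of the 34945, 34741 had an Entrez number found in RefSeq (GRCm38.p6) and took the symbol given there, changed or not. Only probe sets with 1 symbol were read. Listed genes without such a probe set, among them Runx2, Bglap, Spp1 and Gpi1, were not analysed. All 8 members matched a promoter in RefSeq. Genes were read by the probe set that was brightest in mean log2 signal, without further normalisation, and 2-fold was the threshold. Protein sequences were not used here.

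Members, lists and rules were chosen with earlier results of these data known. Named genes are the members, up to 4 of each list with the largest ratios, list members past 2-fold and the 5 genes nearest to Txnip; further genes were named after their values were seen. The code was tested on simulated data. Software was pandas 2.3.3, numpy 2.4.6, statsmodels 0.14.6, scipy 1.17.1 and matplotlib 3.10.9 under Python 3.11.15.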

Additional observations from a re-analysis of the deposited data

How the results depend on the processing

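Results were recomputed with thresholds of 3-fold and 1.5-fold, with a pseudocount of 16 replacing the floor, with the floor at the 75th or the 50th percentile, after loess, quantile normalisation or median centring, with each gene read as the median of its probe sets, and after dropping probe sets whose names mark shared sequence. Txnip kept a log2 ratio between -1.95 and -1.70 in the main setting and under the 8 alternatives other than the fold thresholds. Both other floors and the dropping of shared probe sets leave its brightest probe set as it was, so there it stayed at -1.79. The value of -1.95, from the median over its probe sets, is a bound, since the dimmer one lay under the floor at day 12. Arrdc4 lay between -1.47 (50th percentile floor, above it on both arrays) and -0.69 (median over probe sets, a bound). It could not be measured with the 75th percentile floor, nor could Arrdc1 and Mlxip. The number of members at least 2-fold lower was 1 instead of 2 with that floor, with the median over probe sets and with the 3-fold threshold, and none was higher under any alternative. Arrdc2 was measured with the 50th percentile floor, at 0.03. Mlx had no value after dropping shared probe sets. Over all 11 lists, 20 genes were at least 2-fold higher and 1 lower, where the shares of all measured genes were 3.56% and 1.73%. Of those 20, 14 were genes of glucose transport and glycolysis, whose higher signal was part of the choice, so nothing is read from these counts. The count of higher genes over all lists was 11 with the 3-fold threshold and 12 after dropping shared probe sets. The lower count was 5 with the 1.5-fold threshold, 0 with the 3-fold threshold and 2 with the 50th percentile floor. Of 344 further values, 19 moved by more than the probe set spread (0.24 on the log2 scale) or by over 1.5 times for a count, and the cause was not tested. Of all measured genes, 373 were higher and 181 lower; these were 760 and 807 at 1.5-fold, 175 and 36 at 3-fold, 223 and 74 with the 75th percentile floor, and 510 and 297 with the 50th. No paired analysis was possible because there is 1 array per day.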

Other observations

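The genes beside Txnip and Arrdc4 on their chromosomes, taken by position and named after their values were seen, did not all follow them. Polr3gl, the next protein-coding gene after Txnip, read 145.4 at day 5 and 147.7 at day 12, a log2 ratio of 0.02. Hjv, the one before it, lay under the floor on both arrays, at 5.01 and 1.40. Nr2f2, an orphan nuclear receptor gene next to Arrdc4, had signals of 278.9 and 176.3, a log2 ratio of -0.66. Fam169b, on the other side of Arrdc4, lay under the floor on both arrays.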
